A study of Mus musculus with 6 samples.

Results

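The 641 regions described here are ATAC-seq peaks listed for 1 clone of Spen KO mESCs with no overlapping peak in the list of WT mESCs, away from promoters and without a LINE sequence that 248 of 889 such peaks matched. They were taken from a list of 23722 reproducible ATAC-seq peaks of Spen KO clone 3, and a list of 22753 peaks of HATX WT was set beside it. A region was kept if it lay on chromosomes 1 to 19 outside 100 to 130 Mb of chromosome 1, overlapped no WT peak, scored no lower than its list's median, had its midpoint over 1 kb from every coding TSS, and had no match to the LINE sequence at chr19:9828174-9828978 or chr4:10661590-10662538. The score averages the 2 replicate values in the list, whose scale is unnamed. The regions were thus chosen by measured values, the clone 3 score and the absence of a WT peak, and both are given below as descriptions only.

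Both lines are mouse ES cells of mixed genomic background grown in serum and LIF, derived from a haploid line with an Xist transgene on the X chromosome that doxycycline switches on. HATX WT has an intact Spen gene, and the Spen KO line carries a deletion of most of it and is 1 clone. The samples were grown without doxycycline or with 2 ug/mL for 48 hr, and the labels give each line 1 record of either kind. The lists name only the line, with values for replicates 1 and 2, and whether these are technical replicates or the records without and with doxycycline cannot be told apart here. Spen KO clone 2 was not analysed here. Spen (ENSMUSG00000040761.9, mm9 chromosome 4, 141023805 to 141094512) had 1 peak in each list, within 1 kb of its start, and this peak cannot show whether the gene is deleted. Of 24 annotated genes of pluripotency, 10 had a clone 3 peak and 12 a WT peak within 1 kb of a coding TSS, against 3 and 5 of 24 germ layer regulators. Of 32 genes of neuronal adhesion and synapse, 22 had such a peak in each list. Of 15 Notch and Rbpj targets 8 had a clone 3 peak and 7 a WT peak, and of 19 trophoblast and extraembryonic genes 4 and 6. These counts are not set against all coding genes and do not identify a cell type.

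Spen is a large RNA-binding protein that recruits histone deacetylase complexes, and it is best known for silencing genes on the X chromosome after binding Xist RNA. ATAC-seq reads open chromatin, where the Tn5 transposase can insert adapters. In ES cells much of the distal open chromatin lies in enhancers, and part of it lies in transposable elements such as endogenous retroviruses of the ERVK class and LINE-1 (L1), which are mostly kept closed by repressive chromatin.

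Sequence relatives were common among the regions, and the sequences are shown first because several results below turn on them. At 80% identity over 100 bp, 207 of 641 regions (32.3%, interval 28.8 to 36) matched another of the 641. Grouping each time around the region with the most matches gave 28 families that held 193 regions. In the largest, family 1, the capitals mark the 10 sequences of 8 bases, some of them overlapping, whose share was highest in the 641 regions relative to the shared peaks. The 3 shown are its highest-scoring members whose match spans the 160 bp of the representative that most members cover.
Family 1, chr9:18897800-18897959, plus strand: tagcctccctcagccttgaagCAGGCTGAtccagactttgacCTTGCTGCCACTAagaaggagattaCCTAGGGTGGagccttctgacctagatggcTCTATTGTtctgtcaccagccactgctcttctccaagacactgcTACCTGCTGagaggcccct
Family 1, chr1:46706829-46706988, minus strand: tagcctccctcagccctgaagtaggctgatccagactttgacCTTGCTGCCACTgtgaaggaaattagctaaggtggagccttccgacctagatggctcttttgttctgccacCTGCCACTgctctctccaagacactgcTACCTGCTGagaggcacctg
Family 1, chr3:59367600-59367759, minus strand: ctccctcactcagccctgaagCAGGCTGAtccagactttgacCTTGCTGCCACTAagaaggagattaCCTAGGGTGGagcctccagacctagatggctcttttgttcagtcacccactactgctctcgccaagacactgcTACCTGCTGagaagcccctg
Family 4, in which all 13 members hold at least 1 of these, is shown by its member 265 kb from Cenpw with 8 of the 10, while its highest-scoring member, beside Olfr820, has 3 in the same stretch.
Family 4, chr10:29655740-29655899, plus strand: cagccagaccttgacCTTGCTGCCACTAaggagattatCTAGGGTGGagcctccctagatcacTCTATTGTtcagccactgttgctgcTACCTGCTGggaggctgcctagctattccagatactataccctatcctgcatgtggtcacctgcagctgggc
Family 5 is shown because 10 of its 11 members lay beside ERVK internal sequence. The capitals mark the longest run, of 20 bases, that its 3 members shown here have in common.
Family 5, chr3:44921328-44921487, minus strand: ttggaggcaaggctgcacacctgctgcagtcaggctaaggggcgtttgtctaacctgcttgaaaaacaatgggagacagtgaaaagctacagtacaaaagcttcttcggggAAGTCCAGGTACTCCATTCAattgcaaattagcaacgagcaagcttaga
Family 5, chr4:24819607-24819766, minus strand: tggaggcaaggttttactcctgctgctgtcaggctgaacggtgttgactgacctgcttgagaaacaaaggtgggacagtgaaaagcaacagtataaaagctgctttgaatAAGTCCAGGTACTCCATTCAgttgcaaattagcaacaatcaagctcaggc
Family 5, chr6:60167973-60168132, minus strand: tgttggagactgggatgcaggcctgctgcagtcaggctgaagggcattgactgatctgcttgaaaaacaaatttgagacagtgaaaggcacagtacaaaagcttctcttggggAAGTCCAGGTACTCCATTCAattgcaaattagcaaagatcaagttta
Families 3 and 2 are the other large groups, and the capitals mark the runs of 24 and 46 bases common to the pair shown of each.
Family 3, chr7:18480933-18481052, plus strand: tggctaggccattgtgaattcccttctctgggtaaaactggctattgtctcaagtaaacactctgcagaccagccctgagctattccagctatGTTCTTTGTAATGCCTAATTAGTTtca
Family 3, chr16:86992008-86992127, plus strand: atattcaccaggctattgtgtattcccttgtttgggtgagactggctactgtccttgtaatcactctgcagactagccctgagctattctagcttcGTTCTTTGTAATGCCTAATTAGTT
Family 2, chr10:88507770-88507889, minus strand: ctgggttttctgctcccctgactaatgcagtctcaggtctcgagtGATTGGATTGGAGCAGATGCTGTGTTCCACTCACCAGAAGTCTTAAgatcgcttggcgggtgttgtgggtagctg
Family 2, chr13:19357064-19357183, minus strand: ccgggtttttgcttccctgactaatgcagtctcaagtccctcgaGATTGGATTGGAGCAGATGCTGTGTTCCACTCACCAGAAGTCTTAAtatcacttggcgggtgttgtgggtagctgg
The highest-scoring of all 641 regions belonged to none of these families. The capitals in it and in 2 other high-scoring regions with the motif mark the octamer ATGCAAAT, which Oct4 binds, read here on the opposite strand.
Highest-scoring peak, chr5:85330703-85331002, plus strand: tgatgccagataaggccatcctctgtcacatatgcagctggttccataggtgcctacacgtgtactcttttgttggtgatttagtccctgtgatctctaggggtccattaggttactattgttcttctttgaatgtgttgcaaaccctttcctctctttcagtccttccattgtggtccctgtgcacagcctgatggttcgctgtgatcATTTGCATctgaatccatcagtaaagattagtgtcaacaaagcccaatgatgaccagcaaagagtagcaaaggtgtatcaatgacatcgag
Octamer-containing peak, chr10:70911266-70911316, plus strand: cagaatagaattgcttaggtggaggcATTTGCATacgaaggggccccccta
Octamer-containing peak, chr8:6974180-6974239, plus strand: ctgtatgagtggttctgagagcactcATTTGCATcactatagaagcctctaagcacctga
All were read from the mm9 reference genome by the coordinates of the peaks.

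The regions were of moderate strength, with a value in both replicates. Their replicate 1 values ran from 12.7 to 38.5 with a median of 20.7, and their replicate 2 values from 12.3 to 41.6 with a median of 20.5. Replicate 1 was the higher in 315 of 641. In 390 of 641 both values were at or above their own medians, and the others passed the limit on the mean with at least 1 value below its median. The median score was 20.3, against 24.7 in the 5069 strong distal peaks of the same list that a WT peak overlapped, called shared below. The mirror set, made by the same rule with the lists exchanged, held 354 strong distal WT-only peaks with a median score of 21.6 within their own list. The median length was 457 bp against 523 bp in shared peaks. Near the threshold on score, the 3 lowest regions had scores of 17.9, and the 3 nearest clone 3-only peaks outside it had scores of 17.8. Near the limit of 1 kb, the 3 nearest regions lay 1049 bp from Rabgap1l, 1199 bp from Tyr and 1203 bp from Zfp26, and excluded peaks just inside the limit lay 875 bp from Negr1 and 891 bp from Nlrp14.

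**Figure D1:**
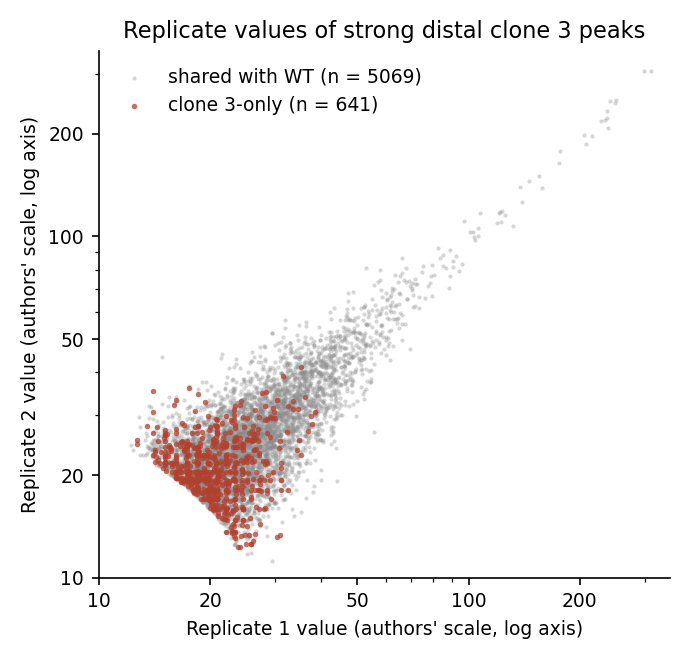
Values of replicate 1 (x axis) and replicate 2 (y axis) on the authors' scale, both axes logarithmic, for strong distal clone 3 peaks shared with WT (grey) and found in clone 3 only (red), 1 point per peak. The clone 3-only regions fill the lower part of the shared cloud, with no value above 41.6, and the lower edge is the threshold on the mean.

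Of 5710 strong distal clone 3 peaks outside the LINE sequence, the 641 regions made up 11.2%. Among all 22101 autosomal clone 3 peaks outside the segment of chromosome 1, 27.9% overlapped no WT peak, and among those at or above the median score 8.57% did. In the WT list the same shares were 26.1%, 6.33% and, for strong distal peaks outside the LINE sequence, 6.99%. From the lowest to the highest of 5 equal groups by score the share found in clone 3 only went from 24.3% to 16.3%, 10.7%, 4.12% and 0.701%, the last being 8 of 1142 peaks. Most of the regions were well separated from any WT peak. The median gap to the nearest WT peak was 59.9 kb (interval 52.6 to 67.9), and 19 of 641 (2.96%) had a WT peak within 1 kb. The WT-only peaks lay 26 kb (interval 22.3 to 35.1) from the nearest clone 3 peak. WT peaks were sparser around the regions, with a median of 6 within 500 kb against 11 for shared and 13 for WT-only peaks. The larger gap is thus not read as a stronger separation. Intervals on shares and differences are 95% Wilson and Newcombe intervals, those on medians 95% binomial intervals, and all cover counting error only. With 1 list per line there is no replicate check on a difference between lines, and peaks are not replicates of a line.

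The 10 strongest regions lay mostly in intergenic DNA, with 3 in introns. The highest, chr5:85330595-85331110, had values of 35.1 and 41.6 in replicates 1 and 2 and lay 350 kb from Gm17312 and 484 kb from the nearest WT peak. The region chr9:18897610-18898167, a member of family 1 beside the olfactory receptor gene Olfr836, had values of 31.5 and 38.9. The region chr1:98379350-98379892, 389 kb from the organic anion transporter gene Slco4c1, had values of 36.1 and 33.8. All 3 had values above 30 in both replicates, and the Olfr836 and Slco4c1 regions were 185 kb and 389 kb away from any WT peak.
The region chr10:51536391-51536782, 59.6 kb from 4933411G06Rik, had values of 38.5 and 30.6. The region chr7:96465596-96466168, in an intron of Tmem135, had values of 37.5 and 29.8 and stands at the head of family 6, which has 8 members. The region chr2:56761361-56762146, 204 kb from Nr4a2, a nuclear receptor of dopaminergic neurons, had values of 37.6 and 28.2. In these 3 replicate 1 was the higher, with a WT peak 8.36 kb from the Tmem135 region and none within 138 kb of the others. The region chr9:10713553-10714136 lay in an intron of Cntn5, a neural adhesion gene, with values of 34.6 and 31.2. The remaining 3 had values between 31.2 and 33.5 and lay in an intron of 1700007G11Rik, 16.2 kb from D3Bwg0562e and 133 kb from 1700003H04Rik.

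The regions lay far from genes. From a region to the closest coding TSS the median was 75.5 kb (interval 63.8 to 85.2). It was 33.1 kb (interval 31.8 to 34.6) in shared peaks, 26.1 kb in WT-only peaks (interval 22.3 to 31.2) and 25.3 kb (interval 24.0 to 26.9) in the 3553 distal clone 3-only peaks below the median score. Over 100 kb from a TSS lay 278 of 641 regions (43.4%), 24.0% of shared peaks and 17.2% of WT-only peaks. The difference from shared peaks was 19.3 points (interval 15.4 to 23.4). Over 500 kb lay 90 regions (14.0%), against 4.77% of shared and 4 of 354 WT-only peaks (1.13%). No coding gene started within 500 kb of 97 regions (15.1%), against 5.70% of shared peaks, and the median number of such genes was 4 against 8.

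The share found in clone 3 only thus grew with distance, and the WT mirror did not show this. Between 1 and 10 kb of a TSS, 81 of 1132 strong distal clone 3 peaks (7.16%, interval 5.79 to 8.81) were clone 3-only and 82 of 1105 WT peaks (7.42%, interval 6.02 to 9.12) were WT-only. Between 50 and 100 kb the shares were 11.2% and 6.91%, and between 100 and 500 kb 16.2% and 6.44%. Beyond 500 kb, 90 of 332 clone 3 peaks (27.1%, interval 22.6 to 32.1) were clone 3-only and 4 of 195 WT peaks (2.05%, interval 0.801 to 5.15) were WT-only. The intervals of the lists overlapped up to 50 kb and were separate from 50 kb on.

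**Figure D2:**
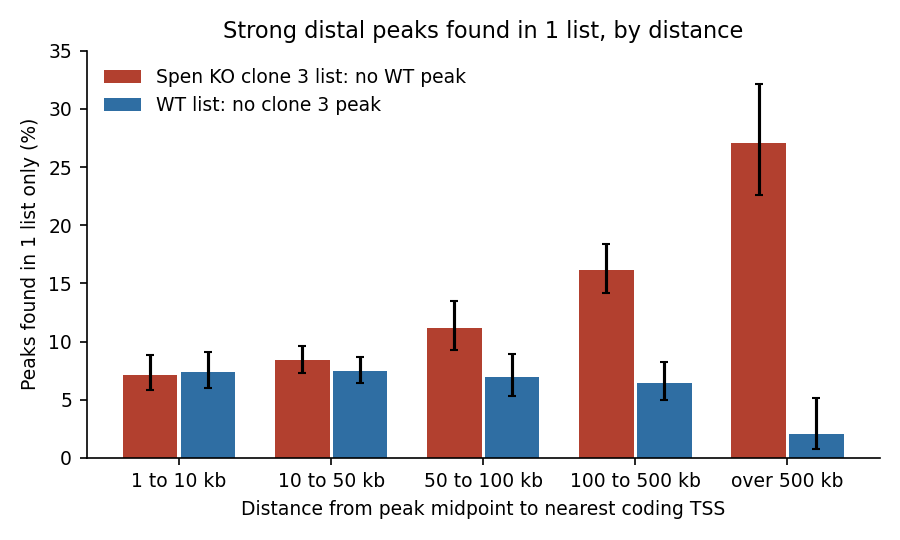
Share of strong distal peaks found in 1 list only (y axis, percent) by distance to the nearest coding TSS (x axis), for the clone 3 list (red) and the WT list (blue), with 95% Wilson intervals. The clone 3 values go from 7.16% to 27.1%, and the WT values go from 7.42% to 2.05%.

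Because the regions were weaker than shared peaks, the distances were also read within the 5 groups by score. In the lowest group 36.3% of regions and 15.7% of shared peaks lay over 100 kb from a TSS, and in the second 45.2% and 20.3%. In the third the shares were 51.6% and 23.9%, and in the fourth 53.2% and 24.9%, with no overlap of intervals in these 4 groups. In the highest group 5 of 8 regions (62.5%, interval 30.6 to 86.3) and 32.7% of shared peaks (interval 30.0 to 35.5) did, with overlapping intervals. The median distance was 132 kb (interval 41.1 to 279) for the 47 regions of the fourth group and 53.2 kb (interval 41.8 to 72) for the 278 of the lowest, with overlapping intervals, and in shared peaks it went from 27.4 kb in the lowest group to 44.7 kb in the highest.

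By annotation, 413 of 641 regions (64.4%, interval 60.6 to 68.0) were intergenic, against 58.0% of shared and 56.8% of WT-only peaks. Introns of coding genes held 202 (31.5%, against 34.9% of shared peaks), exons of coding genes held 13 and non-coding genes or pseudogenes held 13. The regions were poorer in G and C. The median GC content of the central 300 bp was 48.7% (interval 48.0 to 49.7) against 51.7% in shared and 52.7% in WT-only peaks. The median number of CpG in this window was 2 against 4 in both other sets. No CpG at all was found in 114 regions (17.8%), against 9.80% of shared and 6.21% of WT-only peaks. In the lowest group by score the median GC content was 49.3% in regions and 52.3% in shared peaks. The part of GC content in amplification or mapping was not tested.

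The regions were spread over all 19 autosomes, with an excess on chromosome 3. That chromosome held 66 of them, or 18.4% (interval 14.7 to 22.7) of its 359 strong distal clone 3 peaks, against 10.7% (interval 9.94 to 11.6) on the other autosomes. The other shares ran from 6.32% on chromosome 17 to 13.8% on chromosomes 9 and 16. On chromosome 3 the share was 15.6% up to 100 kb from a TSS and 25.2% beyond, against 8.16% and 18.1% elsewhere. WT-only peaks were 8.42% of strong distal WT peaks on chromosome 3. The shared peaks of chromosome 3 ranked a median of 1.11 percentiles higher in clone 3 than in WT (interval 0.158 to 2.07), and over all autosomes this ran from -3.51 on chromosome 19 to 1.17 on chromosome 12, which had clone 3-only shares of 9.09% and 11.5%. It was -3.34 on chromosome 9 and 0.991 on chromosome 18, with clone 3-only shares of 13.8% and 13.4%. Whether the copy number of chromosome 3 differs between the lines was not tested.

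Few regions were close together. Another of the 641 lay within 100 kb of 71 and within 10 kb of 8. The longest run of regions with no other clone 3 peak and no WT-only peak between them held 4 over 809 kb of chromosome 2, all in the gene desert beside Zeb2, a transcriptional repressor of neural crest and epithelial-mesenchymal transition. They were chr2:45591844-45592256 with replicate values of 17.4 and 20.5, chr2:45766531-45766944 with 18.5 and 26.6, chr2:46362505-46362936 with 24.6 and 20.5, and chr2:46400147-46400658 with 27.5 and 17.9. They lay 619 kb to 1427 kb from the Zeb2 TSS. Another region also had Zeb2 as its nearest coding gene, at 108 kb, where 1 shared peak and no WT-only peak did. Runs of 3 were found on chromosome 3 from 20830788 to 21526376, between Agtr1b and Tbl1xr1, and from 124274740 to 124416857, beside 1700003H04Rik. Windows of 1 Mb held at most 4 regions, as in the Zeb2 desert, at 16624739 to 17389933 of chromosome 3 with no shared strong distal peak, and at 51536586 to 52424499 of chromosome 10. The 641 regions had 571 different nearest coding genes.

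Among the gene lists, genes of neuronal adhesion and synapse stood nearest to 23 regions (3.59%, interval 2.40 to 5.33), against 98 shared peaks (1.93%, interval 1.59 to 2.35) and 3 WT-only peaks (0.847%). The shares were not matched for distance to a TSS, which was greater in the regions. The farthest of the 23 lay 1301 kb from Cdh9, and others lay 913 kb from Lphn3 and 828 kb from Robo1. Many genes of this list act in contacts between neurons, though not all do, and 16 of the 32 had a region. Cdh9, Cdh10 and Cdh18, cadherins that lie in a row on chromosome 15, were nearest to 4, 1 and 3 regions. Cdh9 was also nearest to 5 shared and 1 WT-only peak, and Cdh18 to 5 shared peaks and no WT-only peak. The strongest near Cdh9, chr15:16839289-16840113, had values of 26.5 and 31.0 and belongs to family 1. All 3 near Cdh18 lay in its introns, and it was the only coding gene whose body held more than 2. Their values were 22.1 and 17.1, 18.5 and 19.3, and 20.9 and 18.1, so none passed 20 in both replicates. Cntnap2, a neurexin-related adhesion gene of 2241 kb, and Macrod2, of 1998 kb, each held 2 regions. Other genes of the list with a region nearest to them included Cntn5, Robo1, Robo2, Lrp1b, Csmd3, Magi2, Kcnip4, Lphn3 and Ntm.

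The other lists gave few. Of 24 pluripotency genes, Nr5a2 and Zfp42 each had 1 region nearest (2 of 641, 0.312%, against 0.493% of shared peaks). The region near Zfp42, a marker of the naive state, had values of 17.4 and 24.6, and that 427 kb from Nr5a2 had 21 and 19.8. Of germ layer regulators only Pax3 had a region, 188 kb away with values of 18.5 and 19.3 (0.156%, against 0.355%). Of trophoblast and extraembryonic genes Dab2 and Tead4 had 1 each (0.312%, against 0.178%). The Tead4 region lay in an intron 6.75 kb from a TSS, with values of 14.2 and 21.8. None of the 15 Notch and Rbpj target genes was nearest to a region, with a Wilson upper limit of 0.596%, against 6 shared peaks (0.118%).

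Members of the sequence families lay farthest from genes. The 193 regions in a family had a median distance of 148 kb (interval 102 to 195), and the 448 in no family 59.2 kb (interval 47.0 to 70.9). The latter were still farther than the 3914 shared peaks with no match to any of the 641, which had a median of 28.9 kb (interval 27.4 to 30.5). Median GC content in these sets was 48.3% against 52.7%. Both differences were thus seen outside the families, although some regions in no family match another of the 641. Shared peaks matched one of the 641 in 22.8% of cases, WT-only peaks in 11.6% and the below-median clone 3-only peaks in 13.6%. The regions also matched WT-only peaks more often than WT-only peaks matched each other, in 145 of 641 cases (22.6%) against 34 of 354 (9.60%), but shared peaks did so in 19.6%, and the interval of their difference from the regions held 0. At 70% identity the shares of regions and shared peaks were 34.3% and 28.2%, a difference of 6.11 points (interval 2.32 to 10.1).

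Family 1 was the largest, with 44 regions on 18 chromosomes, a median distance of 168 kb and scores from 18 to 35.2. Its representative, chr8:28769268-28769674, matched 166 shared peaks (3.27%), 4 WT-only peaks (1.13%) and 58 below-median clone 3-only peaks (1.63%). The 8-base sequence ACAATAGA was present in 14.0% of regions, 8.94% of shared peaks, 3.11% of WT-only peaks and 3.66% of all 22457 autosomal clone 3 peaks. AGCAGGTA was present in 10.9%, 6.25%, 3.11% and 3.23%, and CCACCCTA in 8.42%, 4.14%, 1.98% and 2.51%. In the other direction, CCCCGCCC was present in 3.74% of regions and 8.50% of shared peaks, CCCTCCCC in 6.24% and 11%, and GCCCCGCC in 1.56% and 6.02%. All were chosen for their difference, and 43 of the 44 family 1 regions and all 13 of family 4 held at least 1 of the 10 more frequent ones. In all 221 regions did so, of which 118 were in a family. Family 2 (23 regions) had L1 sequence within 8 kb of every member, with a median distance of 80.1 kb. Family 3 (22 regions) matched a larger share of shared peaks (4.30%) than any other family. Family 5 (11 regions) matched 25 shared peaks (0.493%), 1 WT-only peak and 27 below-median clone 3-only peaks (0.760%).

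The copies of each family in the genome were also read for peaks below the median score, which the rule left out. The families were seeded on clone 3-only regions, so a higher clone 3 share at their copies is not independent support. It is given as a description only. The representative of family 1 had 910 distal copies at 80% identity, of which 290 overlapped a clone 3 peak and 208 a WT peak. A clone 3 peak below the median score and no WT peak was found at 59 of them (6.48%, interval 5.06 to 8.27), and the reverse at 17 (1.87%, interval 1.17 to 2.97). For family 5 the counts were 28 (7.55%, interval 5.27 to 10.7) and 3 (0.809%, interval 0.275 to 2.35) of 371 copies. For family 2 they were 26 (1.55%) and 4 (0.238%) of 1681 copies, and for family 4 24 (3.64%) and 8 (1.21%) of 659. The intervals of family 3 overlapped, with 24 (3.05%) and 15 (1.90%) of 788 copies. Over all distal peaks below the median score outside the LINE sequence, 53.4% of the clone 3 list and 48.8% of the WT list were found in that list only. These values were not matched for distance, and the members of families 1 to 5 had median distances of 80.1 to 188 kb. Of the family 1 copies with a below-median peak of clone 3, 59 of 83 (71.1%, interval 60.6 to 79.7) had no WT peak, and of those with a below-median WT peak 17 of 79 (21.5%, interval 13.9 to 31.8) had no clone 3 peak. In family 5 the clone 3 share was 28 of 37 copies (75.7%, interval 59.9 to 86.6). In families 2, 3 and 4 it was 66.7% (interval 51.0 to 79.4), 41.4% (interval 29.6 to 54.2) and 51.1% (interval 37.2 to 64.7), and these 3 intervals held the value over all clone 3 peaks. The WT shares of families 2 to 5 were 9.76% (interval 3.86 to 22.5), 20% (interval 12.5 to 30.4), 15.4% (interval 8.01 to 27.5) and 18.8% (interval 6.59 to 43.0), all below the value over all WT peaks. At 70% identity the clone 3 share of family 4 was 85 of 131 copies (64.9%, interval 56.4 to 72.5), above the value over all clone 3 peaks. The families were built from clone 3-only regions, and no families were built from WT-only peaks.

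**Figure D3:**
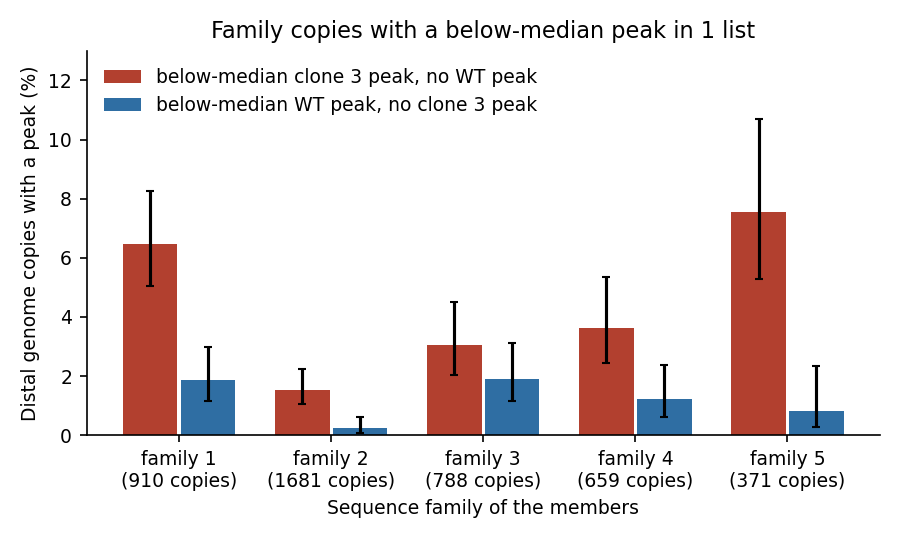
Share of the distal genome copies of each family (x axis, with the number of copies) that overlapped a peak below the median score in 1 list and none in the other (y axis, percent), for clone 3 (red) and WT (blue), with 95% Wilson intervals. The clone 3 values are at 6.48%, 1.55%, 3.05%, 3.64% and 7.55% and the WT values at 1.87%, 0.238%, 1.90%, 1.21% and 0.809%, with overlapping intervals in family 3 only.

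ERVK internal sequence, the part between the long terminal repeats, was more often close to the regions. The study's list of repeats supplied the sequences, and only the 124 of its elements of at least 100 bp among those at hand were used. That list holds expressed elements whose RNA was bound by the RNA-binding domains RRM2-4 of Spen. Other kinds of ERVK or L1 element were thus not searched for. A match of at least 300 bp to MMETn-int, MMERVK9C_I-int, IAPEz-int or RMER16-int lay within 8 kb of 67 of 641 regions (10.5%, interval 8.31 to 13.1), 208 of 5069 shared peaks (4.10%, interval 3.59 to 4.69) and, among the 354 WT-only peaks, 17 (4.8%, interval 3.02 to 7.56). The difference from shared peaks was 6.35 points (interval 4.13 to 9.01). By element the shares in regions and shared peaks were 7.33% and 2.19% for MMETn-int, 6.40% and 1.81% for MMERVK9C_I-int, 2.50% and 1.20% for IAPEz-int, and 1.56% and 1.07% for RMER16-int. The match overlapped the peak itself in 14 regions (2.18%, against 0.631% of shared peaks) and lay within 2 kb in another 33 (5.15%, against 1.62%).

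The ERVK share was higher in regions than in shared peaks in each of the 5 distance bins, with values of 7.41% and 2.09% between 1 and 10 kb, 12.4% and 4.67% between 10 and 50 kb, and 14.4% and 6.61% beyond 500 kb. The intervals were separate up to 50 kb and overlapped beyond. In WT-only peaks the ERVK share was 4.88% (interval 1.91 to 11.9) between 1 and 10 kb and 5.06% (interval 2.59 to 9.67) between 10 and 50 kb. In every bin the interval of WT-only peaks overlapped that of the regions. L1 sequence lay within 8 kb of 342 regions (53.4%, interval 49.5 to 57.2), 35.6% of shared peaks and 26.8% of WT-only peaks. In regions and shared peaks the shares were 40.7% and 22.2% between 1 and 10 kb, 46.8% and 30.6% between 10 and 50 kb, and 61.2% and 50.6% between 100 and 500 kb, with separate intervals in these bins. They were 49.0% and 36.6% between 50 and 100 kb, where the intervals overlapped, and 66.7% (interval 56.4 to 75.5) and 71.9% (interval 65.9 to 77.2) beyond 500 kb.

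**Figure D4:**
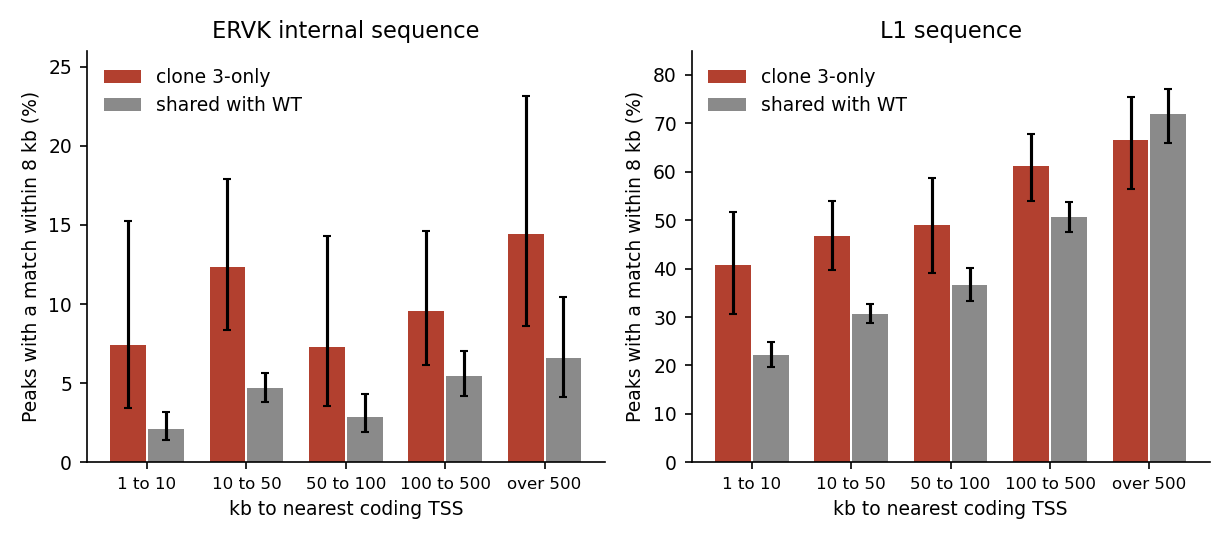
Share of peaks with a match of at least 300 bp within 8 kb to ERVK internal sequence (left) or L1 sequence (right) on the y axes, in percent, by distance to the nearest coding TSS in kb, for clone 3-only regions (red) and shared peaks (grey), with 95% Wilson intervals. ERVK shares are higher in the regions in every bin, and the L1 shares meet beyond 500 kb at 66.7% and 71.9%.

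Of the regions beside ERVK internal sequence, 15 belonged to family 1 and 10 to family 5, and without family 5 the difference from shared peaks was 5.36 points. The strongest member of family 5, chr3:44921166-44921602, lay 261 kb from the protocadherin gene Pcdh10, 922 bp from ERVK internal sequence, with values of 26.1 and 27.8. The member chr4:24819522-24819890, 5.52 kb from Ndufaf4, had a value of 26.4 in both replicates and was among the 8 of 11 members that overlapped the ERVK match. The member chr6:60167878-60168266 had values of 32.4 and 18.1, so the replicates of this peak differed widely. Members also lay 171 kb from Klf6 and 171 kb from Car2, and in an intron of Pcmtd1. ERVK internal sequence lay beside 20 of the 448 regions in no family (4.46%, interval 2.91 to 6.79). It lay beside 64 of the 3914 shared peaks with no match to any of the 641 (1.64%, interval 1.28 to 2.08). These filters are unlike, because some regions in no family match another of the 641.

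Within the peaks themselves the listed ERV elements were rare. At 80% identity over 100 bp, 9 regions (1.40%) matched an ERVK element, against 0.395% of shared and 1.98% of WT-only peaks. At 70% identity 21 regions (3.28%) did, against 1.30% of shared and 2.54% of WT-only peaks. The difference from shared peaks was then 1.97 points (interval 0.797 to 3.68). Of the 9 at 80% identity, chr11:49265460-49265877, beside Olfr1387, matched RLTR13G over 231 bp with values of 15.1 and 21.7. The region chr19:49970806-49971284 matched RLTR44C, with values of 19 and 20.5, and chr3:96298357-96298837, near Hfe2, matched IAPLTR1_Mm, with values of 18.4 and 22.7. The region chr1:175595728-175596180, near Pydc3, matched MMERVK9C_I-int with values of 26.2 and 26, and chr1:7116041-7116404, of family 5, was the strongest to match MMETn-int at this identity. Of the ERV1 class, LTRIS2 matched 5 regions and 65 shared peaks, the strongest region being chr3:138838139-138838535 with values of 23.3 and 31.9, and RLTR1B-int matched 1, in an intron of Acer3. Peaks were called multi-copy where 50% or more of their 24-base sequences had 10 or more copies in the genome. These were 35 of 641 regions (5.46%, interval 3.95 to 7.50), 4.75% of shared and 3.39% of WT-only peaks.

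Motifs of transcription factors were searched on both strands in the central 300 bp. The octamer was found in 40 regions (6.24%, interval 4.62 to 8.39), 5.56% of shared and 4.24% of WT-only peaks, against 3.30% of all autosomal clone 3 peaks. AP-1 (TGANTCA) was found in 13.1% of regions, 11.3% of shared and 15.5% of WT-only peaks, against 7.98% of all. For both, the interval of the difference from shared peaks held 0. The Rbpj motif (GTGGGAA), of interest because Spen is a corepressor of Notch signalling, was found in 6.08% of regions and 6.41% of shared peaks, a difference of -0.327 points (interval -2.08 to 1.89), against 5.96% of all.
The Fox motif (TGTTTAC) was more frequent, in 50 regions (7.80%) against 5.70% of shared, 3.95% of WT-only and 3.67% of all peaks, a difference from shared peaks of 2.10 points (interval 0.146 to 4.51). The GC-rich Tfap2 motif (GCCNNNGGC) was less frequent, in 44 regions (6.86%) against 12.3% of shared, 12.7% of WT-only and 18.6% of all peaks, a difference of -5.47 points (interval -7.42 to -3.07). The CTCF motif, for the factor that bounds chromatin loops, was found in 8 regions (1.25%) against 2.11% of shared and 4.8% of WT-only peaks. Its difference from WT-only peaks was -3.55 points (interval -6.37 to -1.41), and that from shared peaks held 0 in its interval. With the score of replicate 2 alone the CTCF share of the regions was 2.19%, and with that of replicate 1 alone 2.44%. The Stat motif (TTCCNGGAA), for the factor that LIF activates, was found in 1 region (0.156%) against 1.38% of shared peaks. The Nrf1 motif was found in none, with a Wilson upper limit of 0.596%, against 0.690% of shared peaks, and ETS (CCGGAAGT) in 3 (0.468%) against 1.42%. The motif shares were not weighted by GC content, which was lower in the regions, and 23 motifs were searched. For the remaining motifs the interval of the difference from shared peaks held 0. Sox (AACAATGG) was found in 3.43% of regions and 2.47% of shared peaks (1.37% of all), Esrrb (TCAAGGTCA) in 1.40% and 0.690% (0.735%), and Otx (CTAATCC) in 4.21% and 3.24% (2.20%). Klf (GGGTGTGG) was found in 4.21% and 4.66% (4.72%), and the Myc E-box (CACGTG) in 2.81% and 4.44% (6.06%). The others were the E-box CAGCTG, the TEAD motif ACATTCCA, that of Gata factors (AGATAAG), Runx (TGTGGTT), YY1 (AAGATGGC) and T-box (AGGTGTGA), with differences between -0.327 and 0.668 points, and the Sox-Oct composite, p53 and REST motifs, found in 1 region or none.

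**Figure D5:**
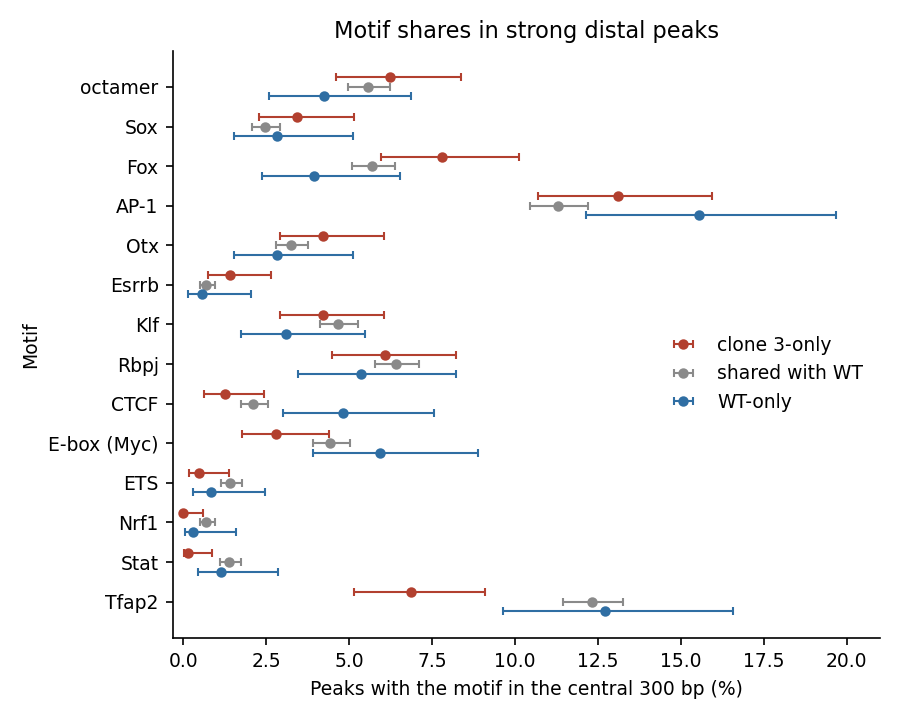
Share of peaks with each motif in the central 300 bp (x axis, percent) for 14 of the motifs searched (y axis), in clone 3-only regions (red), shared peaks (grey) and WT-only peaks (blue), with 95% Wilson intervals. Tfap2 is at 6.86% in the regions against 12.3% and 12.7%, and Fox is at 7.80% against 5.70% and 3.95%.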

How the data were processed

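The labels hold 1 ATAC-seq record without and 1 with doxycycline for each line, and the study's methods speak of technical replicates. Which of these the 2 replicate values of a list stand for is not given in the sources used here. Reads were trimmed (cutadapt) and aligned to mm9 (Bowtie2) by the authors, who kept unique proper pairs without duplicates, used MACS2 (q-value limit 0.01) for peaks, and compared replicates by IDR with a limit of 0.05. Peaks in repeats can be missed in both lists because of the mapping. The deposited lists give the position of a peak, its length, a score in each replicate and its IDR. The scale of these scores is not given in the sources used here, and they were used to rank peaks within a list. Percentiles of rank were set side by side between lists only for shared peaks, as a description. The read depth is unknown. Presence in a list depends on the thresholds, so a region without a WT peak may still have WT signal.

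Coordinates were read as counted from 1. The reference was the mm9 genome and its GENCODE annotation. Overlap by at least 1 bp counted as shared. Matches were made with BLAST 2.17.0 (100 bp, 80% identity, e-value up to 1e-10, and for flanks 300 bp and 70% identity), and genome copies within 500 bp of each other were merged. The distal copies of a family lay over 1 kb from a coding TSS. No test between lines was made. The regions, gene lists and motifs were chosen with earlier results of these data known. Named regions were the 10 highest scores, those nearest the limits, the longest runs and densest windows, the largest families, the strongest match to each ERV element and the nearest genes in a list. Some of the regions and genes that this rule names are not reported here. Counts per nearest gene for Zeb2 and the cadherins of chromosome 15, and the values by group of score, were chosen after the data were seen. Overlap, distances and median intervals were tested on simulated data. Software was pandas 2.3.3, scipy 1.17.1, numpy 2.4.6 and pysam 0.24.0 under Python 3.11.15.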

Additional observations from a re-analysis of the deposited data

How the results depend on the processing

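Each of 10 results was recomputed under 11 alternatives, with 5 more for single results. With a score in the upper 25% of the list 96 regions remained, 3.52% of strong distal clone 3 peaks, at a median of 129 kb from a TSS, with 76.0% intergenic and 0% with the CTCF motif. With both replicates at or above their own medians there were 390, or 8.57%, at a median of 85.95 kb. With 1 replicate left out of the score the share clone 3-only was 12.4% to 12.6%. With the LINE sequence kept the share was 14.3%, the median distance 90.3 kb, and 69.2% were intergenic, 31.6% multi-copy and 51.2% matched another region, the GC content was 51.7%, the octamer was in 4.50% and AP-1 in 9.45%. At least 50 copies of a 24-base sequence gave 1.56% multi-copy, 70% identity gave 41.8% with a match, and whole peaks gave 17.8% with AP-1. The other 94 values stayed within 1.5 times of the count or inside the interval, among them the share with the CTCF motif, which went from 1.25% to 2.19% without replicate 1 and 2.44% without replicate 2. Of the alternatives chosen after seeing the data, keeping regions in no family and shared peaks with no match to a region lowered the ERVK difference from 6.35 to 2.83 points (interval 1.21 to 5.19). These filters are unlike, because some regions in no family match another region. The difference in distance was 17.8 to 21.7 points in its 3. No paired analysis was possible because each list combines the replicates of a line. Depth is unknown, so a region absent from a list is not shown to be closed.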

Other observations

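On the X chromosome, which the regions above leave out, 91 of 420 strong distal peaks of clone 3 were absent from the WT list (21.7%, interval 18 to 25.9), and 17 of 298 strong distal WT peaks (5.70%, interval 3.59 to 8.94) overlapped no clone 3 peak. The LINE sequence was kept in these counts. With it kept, 14.3% (interval 13.5 to 15.2) of strong distal clone 3 peaks on the autosomes overlapped no WT peak. Both lines carry an inducible Xist transgene on this chromosome, and the part of doxycycline in these values was not tested.

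The rank of shared peaks within their own list was also read by distance, as a description, since the lists differ in length and make-up and their depth is unknown. For shared distal autosomal peaks outside the LINE sequence whose mean percentile over both lists was at least 50, the median percentile in clone 3 minus that in WT was 0.542 (interval -0.0412 to 1.26) for 1012 peaks between 1 and 10 kb of a coding TSS. It was 6.42 (interval 5.11 to 7.40) for 918 peaks between 100 and 500 kb and 11.3 (interval 8.65 to 13.5) for 232 peaks beyond 500 kb.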
